A study of Mus musculus with 2 samples.

Results

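The collagen genes were taken as every row whose symbol reads Col, a number, the letter a and a number, the pattern used for genes of collagen chains in the mouse. This gave 43 of the 23521 genes in the tables. They were described in droplet single-cell RNA of afferent lymphatic vessels (scLV-1 and scLV-2) of the submandibular lymph nodes, from FVB/N mice carrying the Prox1-GFP reporter, in which the promoter of the lymphatic transcription factor Prox1 drives green fluorescent protein. Both groups carried the reporter and no treatment is named for either. The adult library pooled 6 mice aged 12 weeks and the aged library pooled 6 mice aged 93 weeks. Cells were sorted by flow cytometry before capture, and the gate is not given in the sources used here. With 1 pooled library per age no difference between ages has a replicate check, no test was made, and mice within a pool cannot be told apart.

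Collagens are secreted proteins built from chains that wind around each other into a helix, and each collagen type is assembled from chains of particular genes. Fibrillar collagens (types I, III and V) form the cable-like fibrils of connective tissue, and fibril-associated collagens such as type XIV decorate them. Type IV collagen makes the sheet-like network of basement membranes under endothelium and around smooth muscle, type VI forms beaded filaments near the cell surface, and types XV and XVIII are basement-membrane proteoglycans known as multiplexins. In a vessel wall the fibrillar chains come mainly from fibroblasts of the outer coat.

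Promoter sequences from RefSeq on GRCm38.p6 were listed for 34 of the 43 genes. Those of Col1a2, Col3a1 and Col6a1 are printed because these genes, from 3 loci, were among the most abundant and were all higher in the aged fibroblast-like cells. Each run holds the 250 bases before the transcript start, with capitals for matches to the CCAAT box (letters CCAAT), the TATA box (letters TATAAA) or the GC box (letters GGGCGG) on either strand. The coordinates are chr6:4505368-4505617 on the plus strand for Col1a2, chr1:45311288-45311537 on the plus strand for Col3a1 and chr10:76726045-76726294 on the minus strand for Col6a1.
Col1a2: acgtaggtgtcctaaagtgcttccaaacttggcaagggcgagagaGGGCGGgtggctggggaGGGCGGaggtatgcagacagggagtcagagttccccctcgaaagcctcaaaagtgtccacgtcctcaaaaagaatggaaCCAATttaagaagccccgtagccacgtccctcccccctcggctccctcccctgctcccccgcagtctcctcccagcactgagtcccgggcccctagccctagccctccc
Col3a1: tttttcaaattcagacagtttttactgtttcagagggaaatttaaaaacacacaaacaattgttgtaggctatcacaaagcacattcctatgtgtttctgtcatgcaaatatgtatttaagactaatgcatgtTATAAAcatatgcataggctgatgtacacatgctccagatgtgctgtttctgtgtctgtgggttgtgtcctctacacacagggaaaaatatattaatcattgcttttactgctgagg
Col6a1: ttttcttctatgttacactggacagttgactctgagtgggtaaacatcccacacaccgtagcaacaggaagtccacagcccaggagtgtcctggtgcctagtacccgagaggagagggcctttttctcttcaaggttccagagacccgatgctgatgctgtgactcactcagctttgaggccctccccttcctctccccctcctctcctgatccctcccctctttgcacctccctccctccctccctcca
The Col1a2 window held 1 match to CCAAT and 2 to GGGCGG, the Col3a1 window held 1 match to TATAAA, and the Col6a1 window held none of these letters. CCAAT or its reverse ATTGG occurred in 12 of 36 collagen windows and in 33.8% of the 32851 windows of all genes. TATAAA or TTTATA occurred in 5 of 36 against 12.4%, and GGGCGG or CCGCCC in 22 of 36 against 32.7%. A match is a description of the letters only. Col4a1 and Col4a2, the chains of the common basement membrane network, lie head to head on chromosome 8: the first transcribed bases were 11312826 (minus strand) and 11312805 (plus strand), 21 bases apart. Read in these directions, the listed transcripts overlap at their starts and leave no gap.

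There were 7308 cells in the adult table, 13969 cells in the aged one, and 6977 of the adult barcodes (95.5%) also appeared in the aged table. These repeated cells were counted once, as adult, which left 6992 aged cells. Over genes, mean levels of the repeated cells correlated at 0.998 between the tables, so the same cells did not hold identical values in both. The part of this difference between tables in the ratios between ages was not tested. Clusters were built without any collagen gene and named from marker genes: 6038 adult and 6204 aged cells were fibroblast-like, 318 and 242 smooth muscle-like, 628 and 425 blood endothelial-like, and 274 and 87 lymphatic endothelial-like. Another 50 and 34 cells carried markers of more than 1 class and were kept apart. Median UMIs (unique molecular identifiers, 1 per captured RNA) per cell were 13164.5 and 12213.5 in fibroblast-like cells and between 5232 and 7521.5 in the other classes and ages. All 6 fibroblast markers were found in both libraries of the fibroblast-like class at a summed 21099 and 21519 CPM. The summed epithelial markers were there at 0.0123 and 0.41 CPM.

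Levels are UMIs of a gene per 1000000 UMIs of a class (CPM). The kit counts the 3′ end of each RNA once, so CPM values of different genes are compared per molecule and are not divided by gene length. Ratios are log2 of aged over adult CPM after adding 1 CPM to each. Each interval is exact, at 95%, covers counting error only and was computed with nothing added, so for a low gene it need not be centred on the printed ratio. A gene counted as measured in a class where both libraries together held at least 50 UMIs and the mean level was at least 5 CPM, and it was called higher or lower from 1.5-fold.

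Of the 43 genes, 28 were measured in at least 1 of the 4 classes and 4 in all of them: Col4a1, Col4a2, Col4a5 and Col18a1. The other 15 held 5 to 310 UMIs each and at most 9.14 CPM in any class. They were Col2a1, Col4a3, Col6a4, Col7a1, Col8a2, Col9a2, Col9a3, Col10a1, Col11a1, Col11a2, Col17a1, Col22a1, Col24a1, Col26a1 and Col28a1, which include the type II, IX, X and XI chains known from cartilage and the type VII and XVII chains known from epithelial attachment. Since a gene can pass the filter through the library or class in which it is high, the measured genes do not stand for all 43.

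Collagen RNA was far more abundant in fibroblast-like cells than in the other classes, and higher in the aged library there. It made up 0.79% of all UMIs of adult and 1.53% of aged fibroblast-like cells. Smooth muscle-like cells held 0.323% and 0.474%, blood endothelial-like cells 0.0773% and 0.0875%, and lymphatic endothelial-like cells 0.0627% and 0.0642%. Per fibroblast-like cell the median share was 0.647% in the adult and 1.18% in the aged library, and the range from the 10th to the 90th percentile ran from 0.333% to 1.36% and from 0.593% to 2.99%. The ages therefore overlapped cell by cell while all 3 percentiles lay higher in the aged library.

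The make-up of collagen RNA differed between classes. Fibrillar chains took 71.7% of collagen UMIs in adult and 80.7% in aged fibroblast-like cells, and Col1a1, Col1a2 and Col3a1 alone took 63.8% and 74.4%. In smooth muscle-like cells fibrillar chains took 48.3% and 59.2% and the 6 type IV chains 21.1% and 19.4%. Type IV chains took 48.9% and 35.9% in blood endothelial-like and 31.0% and 34.2% in lymphatic endothelial-like cells. The multiplexins took 20.6% and 18.7% in blood endothelial-like cells against 1.05% and 0.59% in fibroblast-like cells. Transmembrane collagens, which stay anchored in the cell surface, took 30.2% and 16% in lymphatic endothelial-like cells, nearly all of it Col23a1.

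In fibroblast-like cells 24 of the 43 genes were measured, and 9 of these were at least 1.5-fold higher in the aged library, where 1.95% of the 9979 genes measured were. None of the 24 was as much lower, where 4.46% of all measured genes were. The median log2 ratio of the 24 was 0.43, beside -0.05 for all genes measured. The 9 genes were Col1a1, Col1a2, Col3a1, Col5a1, Col5a2, Col6a1, Col6a2, Col4a5 and Col6a5. With the repeated cells left in the aged table, 5 of the collagens were past 1.5-fold. The repeated cells are adult, so that setting draws ratios towards 0 by its make-up.

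The chains of types I and III stood furthest apart in absolute amount. Col1a2, the second chain of type I collagen, was at 2292 CPM in adult and 4603 CPM in aged cells, a log2 ratio of 1.01 (1.0 to 1.01). Col3a1, the only chain of type III, was at 1934 and 4727 CPM, a ratio of 1.29 (1.28 to 1.3). Col1a1, the first chain of type I, was at 811 and 2017 CPM, a ratio of 1.31 (1.3 to 1.33). Col3a1 was the second most abundant collagen in the adult and the most abundant in the aged library. All 3 levels were thus separated by more than the counting error, which says nothing of the spread between mice.

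Type V chains, which regulate the diameter of type I fibrils, were also higher. Col5a2 was at 311 and 478 CPM, a log2 ratio of 0.62 (0.6 to 0.64), and Col5a1 was at 214 and 338 CPM, a ratio of 0.66 (0.63 to 0.69). Col5a3 stayed just under the threshold at 89.3 and 131 CPM, a ratio of 0.55 (0.51 to 0.59). Members just outside 1.5-fold were Col5a3 (1.46-fold), Col6a3 (1.44-fold), Col23a1 (1.43-fold, lower) and Col6a6 (1.42-fold), and those just inside were Col5a2 (1.53-fold) and Col5a1 (1.58-fold).

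The type VI chains, which form beaded filaments, came next in amount. Col6a1 was at 448 CPM in adult and 737 CPM in aged cells (log2 ratio 0.72, 0.7 to 0.74), Col6a2 at 314 and 537 CPM (0.77, 0.75 to 0.79) and Col6a3, the chain that joins both in the usual type VI filament, at 212 and 305 CPM (0.52, 0.5 to 0.55). Of the chains that can take the place of Col6a3, Col6a6 was at 81.8 and 117 CPM (0.51, 0.46 to 0.56) and Col6a5 at 41.6 and 93.3 CPM (1.14, 1.1 to 1.22). Summed over the family, type VI chains were at 1098 and 1789 CPM. All 5 type VI chains measured were higher in the aged library, 3 of them past 1.5-fold.

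Type IV chains differed among themselves. Col4a1 was at 198 CPM in adult and 209 CPM in aged cells, a log2 ratio of 0.08 (0.05 to 0.11), and Col4a2 was at 77.1 and 81.1 CPM, a ratio of 0.07 (0.02 to 0.12). Col4a5, a chain of the less common type IV networks, was at 9.99 and 24.5 CPM, a ratio of 1.21 (1.17 to 1.41). Its usual partner Col4a6 was not measured in fibroblast-like cells, and Col4a4 was at 13.3 and 16.5 CPM (0.29, 0.19 to 0.42). Among type IV chains only Col4a5 was therefore past 1.5-fold in this class.

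The fibril-associated collagens differed little between ages. Col14a1, which binds fibril surfaces and was the fourth most abundant collagen of adult fibroblast-like cells, was at 633 and 610 CPM, a log2 ratio of -0.05 (-0.07 to -0.04). Col12a1 was at 35.1 and 35.7 CPM (0.02, -0.05 to 0.1) and Col16a1 at 52.1 and 67.2 CPM (0.36, 0.31 to 0.43). The multiplexin Col15a1 was at 49.4 and 61.9 CPM (0.32, 0.26 to 0.39) and Col18a1 at 33.6 and 28.2 CPM (-0.25, -0.34 to -0.18). As a family the fibril-associated chains were at 728 and 721 CPM, so their part of collagen RNA was 9.22% in the adult and 4.72% in the aged library. The remaining measured genes, Col8a1, Col20a1, Col23a1 and Col27a1, stayed between 6.92 and 13.1 CPM in both libraries.

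**Figure D1:**
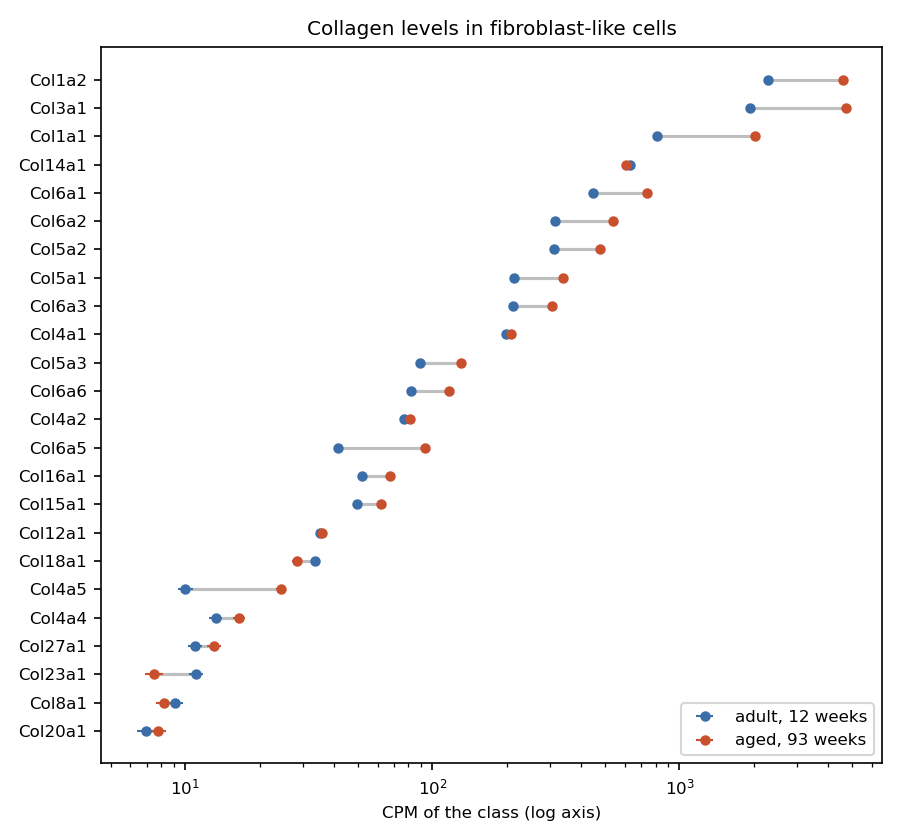
CPM (log axis) of the 24 collagen genes measured in fibroblast-like cells, with 1 point per library (blue, adult; red, aged), bars for exact 95% Poisson intervals and a grey line joining both. Col1a1, Col1a2 and Col3a1 show wide gaps between ages, while Col14a1, Col4a1, Col4a2 and Col12a1 lie nearly on one point.

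Chains that assemble together were compared by their UMI ratio. Col1a1 stood at 0.354 of Col1a2 in the adult (95% interval 0.351 to 0.357) and 0.438 in the aged fibroblast-like cells (0.436 to 0.441). Col4a1 stood at 2.57 times Col4a2 at both ages (2.49 to 2.64 and 2.5 to 2.65). Col6a1 stood at 1.42 and 1.37 times Col6a2, and Col6a3 at 0.473 and 0.414 of Col6a1. The type I chains thus differed in proportion between the libraries, whereas the head-to-head type IV pair held the same ratio within counting error.

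The cells called male or female, from Xist against Y-linked genes, were not in the same proportion in both libraries. Female cells were 55.5% of the sex-called fibroblast-like cells in the adult and 41.4% in the aged library. Among female cells (2959 adult, 2248 aged) Col1a1 was at 863 and 1639 CPM, a log2 ratio of 0.92, and among male cells (2373 and 3181) it was at 722 and 2181 CPM, a ratio of 1.59. Col3a1 had ratios of 1.04 in female and 1.55 in male cells, Col1a2 0.85 and 1.02, Col4a5 0.62 and 1.92, and Col6a5 1.5 and 0.88. The difference between sexes was not tested. All of these genes were past 1.5-fold higher in the aged library in cells of either sex.

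Genes whose products help collagen to fold, mature and cross-link stood closer together between ages than the main collagens. Of a list of 31 such genes 29 were measured in fibroblast-like cells, none was past 1.5-fold in either direction, 27 had a ratio above 0, and the median was 0.25. Serpinh1, the collagen chaperone HSP47, was at 479 CPM in adult and 686 CPM in aged cells (0.52, 0.5 to 0.54). Pcolce, which enhances trimming of the procollagen tail, was at 519 and 694 CPM (0.42). P4hb, a subunit of prolyl hydroxylase, was at 202 and 239 CPM (0.24), and Lox, which starts cross-linking, was at 34.6 and 37.3 CPM (0.11). Of 11 measured collagen receptors 1 was past 1.5-fold: Itga2, an integrin chain that binds collagen, at 13.6 and 24.1 CPM (0.78, 0.72 to 0.93). Ddr2, a receptor kinase activated by fibrillar collagen, was at 818 and 795 CPM (-0.04), and the receptor median was -0.04. The fibroblast-restricted gene Dcn was at 15174 and 14834 CPM, and the median over 8 such genes was 0.1.

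The same direction was seen in every cluster that could be compared. Of 22 fibroblast-like clusters 20 held at least 10 cells in each library, and the collagen share of UMIs was higher in the aged library in 20 of the 20, by 1.42 to 2.66 times with a median of 1.74. It spanned 0.531% to 1.6% over the adult and 0.864% to 3.27% over the aged clusters, so clusters overlapped between ages while each stood above its own adult value. Col1a1, Col1a2, Col3a1, Col5a1, Col5a2, Col6a1, Col6a2, Col6a3 and Col16a1 were higher in 20 of 20 clusters. Col1a1 ran from 0.49 to 1.78 on the log2 scale over clusters, with a median of 1.07, and Col3a1 from 0.68 to 1.92, with a median of 1.11. Col4a5 was higher in 19 clusters, Col6a5 in 17, Col4a1 in 13, Col14a1 in 9 and Col18a1 in 6.

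**Figure D2:**
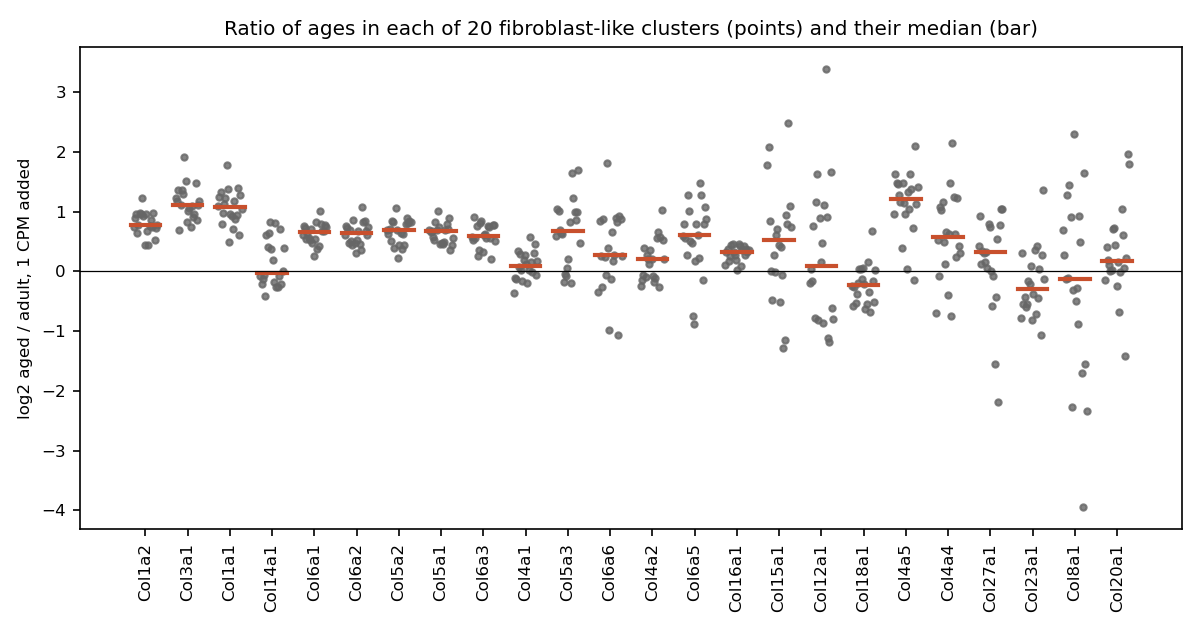
Log2 ratio of aged over adult CPM (vertical axis) of each collagen gene measured in fibroblast-like cells, with 1 point for each of the 20 clusters that held at least 10 cells of each library and a red bar at their median. Every point of Col1a1, Col1a2 and Col3a1 lies above 0, whereas the points of Col14a1, Col18a1 and Col23a1 lie on both sides of 0.

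Marker genes gave 9 fibroblast subtypes, called here by 2 genes of each marker list, and 965 adult and 1576 aged fibroblast-like cells had none. Clusters of a subtype need not lead with those 2 genes: of the clusters under Ctla2a Krtdap 1 led with Mrgprg and Krt19 and held 395 of its 683 adult and 439 of its 470 aged cells. Of those under Plcxd3 Cxcl13 1 led with C7 and Fmo2 (325 of 925 and 384 of 655 cells), and of those under Cxcl14 Enpp2 1 led with Myoc. Cpz Gdf10 (165 adult and 553 aged cells) and Wt1 Has2 (225 and 648) came mostly from the aged library and Fmod Fhl2 (253 and 70) mostly from the adult. Each subtype was compared with the equal mean of the other 8, and a gene was counted where it was at least 2-fold apart in the same direction in both libraries. Of the 9981 genes measured among subtypes 26 were collagens, and counts are set beside the share of all these genes for each subtype and direction. A subtype set against the rest is a description, not a test. Subtypes also differed in sex. Female cells were 91.1% of adult and 94.6% of aged sex-called cells in Mrgprg Rgs6, and 87.1% and 87.6% in Rxfp1 Fbln7. They were 3.88% and 2.51% in Cpz Gdf10 and 15.6% and 24.8% in Plcxd3 Cxcl13. In the other subtypes the female share lay between 27.6% and 73.7%. The part of sex in subtype levels and ratios was not tested.

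Cpz Gdf10 fibroblasts carried the most collagen RNA of the 9 subtypes in the aged library, 3.27% of UMIs after 1.23% in the adult, beside 1.32% in adult Cxcl14 Enpp2 cells. Their type I chains stood out: Col1a1 was at 1860 CPM in adult and 6403 CPM in aged cells, and Col1a2 at 5186 and 12076 CPM. These 2 genes were the only collagens counted as higher there, against 0.962% of all genes measured among subtypes, and 9 were lower, against 8.89%. Of their sex-called cells 3.88% and 2.51% were female, so these levels are nearly all of male cells. The lower genes included Col5a3 (33.8 and 32.7 CPM) and Col12a1 (6.41 and 3.21 CPM).

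Fmod Fhl2 fibroblasts carried the less common basement membrane chains. Col4a4 was at 175 CPM in adult and 207 CPM in aged cells, where the median subtype was at 9.89 and 12.8 CPM. Col4a3, which assembles with Col4a4 and Col4a5 in the network known from kidney, was at 42.1 and 46.2 CPM against medians of 1.81 and 0.591 CPM. Col4a5 was at 84.3 and 76.4 CPM against 7.0 and 19.9 CPM. Among the 9 subtypes all chains of that network were therefore highest in the same one in both libraries. A cluster without a subtype (5 adult and 167 aged cells) held aged Col4a5 at 202 CPM, with Col4a3 at 9.11 and Col4a4 at 42.8 CPM. Col11a1, a fibrillar chain best known from cartilage and tendon, was at 76.9 and 46.2 CPM, with medians of 0 and 0.265 CPM over the 9 subtypes. Col4a2 (219 and 326 CPM) and Col15a1 (178 and 310 CPM) completed the 6 higher collagens, against 4.19% of all genes, and 3 were lower, against 7.18%: Col5a3, Col6a5 and Col6a6.

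Col8a1, a chain of short-chain networks, was at 138 CPM in adult and 8.04 CPM in aged Fmod Fhl2 cells, a log2 ratio of -3.94 (-5.98 to -2.73) from 333 and 4 UMIs. Among the subtypes the aged level was highest in Prg4 Myoc cells, at 33.8 CPM. A cluster without a subtype (5 adult and 167 aged cells) held aged Col8a1 at 123 CPM. The subtype with the highest Col8a1 level thus differed between the libraries, and it was not counted as higher in either subtype.

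Cxcl14 Enpp2 fibroblasts had 6 higher collagens, against 2.07% of all genes, and 3 lower, against 3.29%. Col4a1 was at 502 CPM in adult and 563 CPM in aged cells and Col18a1 at 94.6 and 86.7 CPM. Col5a3, whose medians over subtypes were 46.2 and 95.8 CPM, was at 277 and 273 CPM. These cells thus carried Col4a1 and a multiplexin together with Col5a3 of type V. Col12a1 was at 70.1 and 99.6 CPM, Col27a1, a long fibrillar collagen, at 41.8 and 53.3 CPM, and the transmembrane Col23a1 at 24.5 and 14.2 CPM. The lower ones were Col4a3, Col4a4 and Col11a1.

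Col15a1 and Col12a1 split the subtypes in different ways. Col15a1 was at 166 and 203 CPM in Rxfp1 Fbln7 fibroblasts, the 1 higher collagen there against 0.972% of all genes, with 3 lower against 3.73%. It was at 1.66 and 2.07 CPM in Ctla2a Krtdap and at 1.47 and 1.64 CPM in Mrgprg Rgs6 cells. In Wt1 Has2 cells it had no UMI in the adult library, which allows a level of up to 0.778 CPM by counting error, and 3.21 CPM in the aged library. Col15a1 was thus low in these 3 subtypes, which all carried abundant Col1a2. It was also counted as lower in Prg4 Myoc cells, at log2 ratios to the other subtypes of -3.97 and -3.18. Col12a1 was at 113 and 93.4 CPM in Prg4 Myoc fibroblasts, the 1 higher collagen there against 0.541%, with 5 lower against 2.93%.

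The other subtypes had no collagen counted as higher. The mean they were set against includes Fmod Fhl2, with its far higher Col4a3, Col4a4 and Col11a1. A gene counted as lower by that mean need not lie below the median subtype. With 10 CPM added, 37 of the 73 calls over all collagens and subtypes remained. Ctla2a Krtdap had 0 higher (against 0.842%) and 12 lower (against 6.79%), among them Col4a1 at 72.8 and 86.8 CPM and Col4a2 at 21.8 and 25.8 CPM. Mrgprg Rgs6 had 0 higher (against 3.38%) and 8 lower (against 5.43%), 5 of them type IV chains. It held the highest Col14a1 level of the 9 subtypes, 1059 and 928 CPM. A cluster without a subtype (5 adult and 167 aged cells) held aged Col14a1 at 1243 CPM. Plcxd3 Cxcl13 had 0 higher (against 0.11%) and 5 lower (against 1.15%). Col4a4, 1 of these 5, was at 10.1 and 10.6 CPM in its adult clusters, where the median subtype was at 9.89 CPM. In its aged clusters Col4a4 was at 9.46 and 17.4 CPM, where the median was 12.8 CPM. Wt1 Has2 had 0 higher (against 1.87%) and 9 lower (against 5.3%). Wt1 Has2 cells were the subtype with the lowest Col1a1, at 432 and 1028 CPM, and the lowest Col3a1, at 1067 and 2425 CPM. Their Col1a2 was at 1472 and 2747 CPM, the lowest in the adult library, while in the aged library Mrgprg Rgs6 was lower, at 2577 CPM. The collagen share of Wt1 Has2 cells was 0.531% and 0.935%, the lowest of the 9 in both libraries.

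Over the 15 collagens with the strongest subtype pattern, the ratio of the highest to the median subtype, averaged over libraries, ran from 2.54 to 53.1. Col11a1 (53.1), Col8a1 (21.6), Col4a3 (20.5) and Col4a4 (15.5) led, followed by Col4a5 (5.16), Col27a1 (4.82), Col15a1 (4.06), Col12a1 (3.86) and Col5a3 (3.83). Col4a2 (2.97), Col6a5 (2.94), Col18a1 (2.86), Col1a1 (2.83), Col23a1 (2.54) and Col4a1 (2.54) were next. Apart from Col1a1, these were chains at lower levels than Col1a1, Col1a2 and Col3a1. When collagen genes were allowed into the clustering, the highest subtype was the same for 15 of the 15, and at the coarser clustering (resolution 1) for 14, Col4a1 then being highest in Fmod Fhl2 cells.

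**Figure D3:**
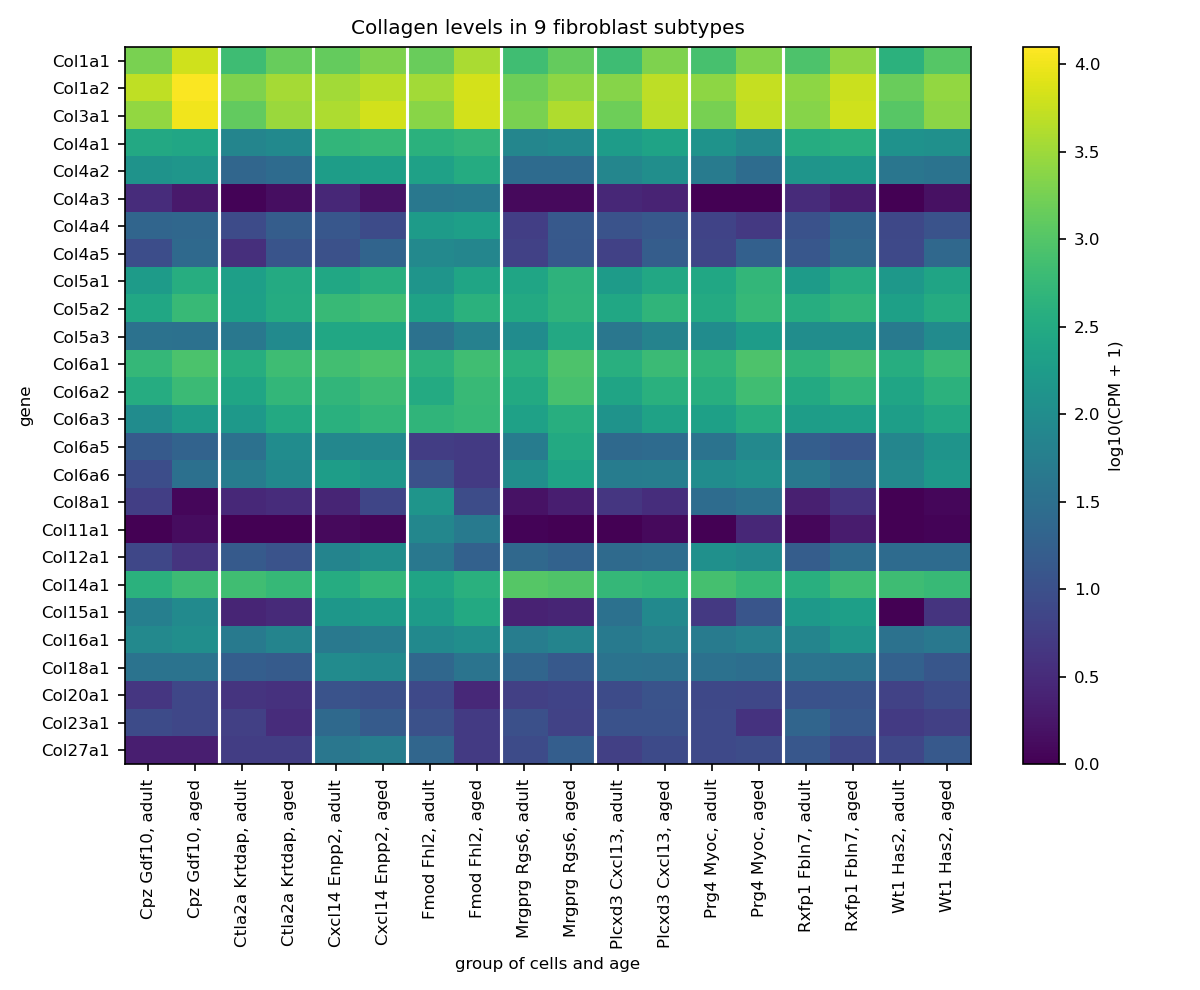
Level, as log10(CPM + 1) in colour, of the 26 collagen genes measured among subtypes (rows) in the 9 fibroblast subtypes, each with an adult and an aged column. Bright rows of Col1a1, Col1a2 and Col3a1 cross all columns, and Col4a3, Col4a4, Col4a5 and Col11a1 stand out in the Fmod Fhl2 columns.

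The ages differed to an unequal extent between subtypes. Col3a1 was at least 1.5-fold higher in the aged library in 9 of 9 subtypes, and Col1a1, Col1a2, Col4a5, Col5a1, Col6a1 and Col6a2 in 8 of 9. Collagens past 1.5-fold higher were 12 of 19 measured in Cpz Gdf10 (7% of all genes there), 13 of 19 in Ctla2a Krtdap (2.8%), 14 of 22 in Mrgprg Rgs6 (3.48%) and 12 of 21 in Wt1 Has2 (3.61%). They were 12 of 23 in Prg4 Myoc (3.83%), 11 of 23 each in Fmod Fhl2 (5.43%), Plcxd3 Cxcl13 (3.01%) and Rxfp1 Fbln7 (3.37%), and 2 of 23 in Cxcl14 Enpp2 (2.98%), where these were Col3a1 and Col4a5. Lower were 0 in Cpz Gdf10 (8.14%), Ctla2a Krtdap (10.9%), Plcxd3 Cxcl13 (4.76%) and Wt1 Has2 (5.25%), 2 in Cxcl14 Enpp2 (6.87%) and Mrgprg Rgs6 (5.2%), 3 in Prg4 Myoc (9.3%) and Rxfp1 Fbln7 (10.1%), and 4 in Fmod Fhl2 (18%). Those in Rxfp1 Fbln7 were Col6a6, Col23a1 and Col27a1, in a subtype whose clusters held 272 and 610 adult and 532 and 167 aged cells. Within these clusters Col27a1 was higher in the aged library (1.47 and 1.76 CPM, 15.6 and 19.7 CPM), and Col6a6 was at 14.7 and 17.6 CPM and at 52.6 and 50.1 CPM. Of the 14 in Mrgprg Rgs6, Col27a1 and Col6a6 went both ways in its clusters of 705 and 164 and of 36 and 322 cells. Col27a1 was at 6.55 and 8.52 CPM in the first and at 26.2 and 19.3 CPM in the second. Col6a6 was at 101 and 84 CPM and at 169 and 313 CPM. The others of the 14 were higher in the aged library in both clusters. Cxcl14 Enpp2 was thus the subtype with the fewest higher collagens. Col1a1 had its smallest ratio in Cxcl14 Enpp2 cells (1374 and 2004 CPM, 0.54) and its largest in Cpz Gdf10 cells (1.78). Col3a1 had its extremes in the same subtypes, from 0.79 (3886 and 6713 CPM) to 1.92 (2699 and 10195 CPM). The subtype with the highest adult Col3a1 level was therefore the one with the smallest ratio. Whether subtypes differ in these ratios was not tested.

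Subtype ratios of Col6a5 and Col14a1 could differ from those within clusters. Col6a5 was at 51.2 and 308 CPM in Mrgprg Rgs6 cells, a log2 ratio of 2.56. That subtype joined a mostly adult cluster (705 and 164 cells) in which Col6a5 was at 45.8 and 55.4 CPM with a mostly aged one (36 and 322 cells) in which it was at 153 and 427 CPM. In Rxfp1 Fbln7 cells Col6a5 was at 15.9 and 11.9 CPM (-0.39, -0.82 to -0.03), but it was higher in the aged library in both clusters of that subtype, at 2.21 and 5.48 CPM in one (272 and 532 cells) and at 21 and 30.4 CPM in the other (610 and 167 cells). Col14a1 was higher in aged Rxfp1 Fbln7 (389 and 681 CPM, 0.81), Fmod Fhl2 (0.70), Cpz Gdf10 (0.65) and Cxcl14 Enpp2 cells (0.57) and below 0 in the other 5 subtypes, down to -0.44 in Prg4 Myoc (765 and 564 CPM). Within Prg4 Myoc the cluster of 409 and 496 cells held Col14a1 at 593 and 560 CPM and that of 203 and 6 cells at 1047 and 855 CPM. Plcxd3 Cxcl13, with a ratio of -0.17, joined a cluster at 653 and 598 CPM with one at 179 and 317 CPM. Over the 20 clusters Col14a1 was higher in the aged library in 9.

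Col4a1 in Prg4 Myoc cells was at 127 and 80.4 CPM (-0.65, -0.81 to -0.51). This subtype joined a cluster of 203 adult and 6 aged cells, in which Col4a1 was at 182 and 731 CPM, with one of 409 and 496 cells, in which it was at 93.4 and 72.7 CPM, a ratio of -0.36. The clusters thus had opposite directions, the higher aged value resting on 6 cells. Col15a1 in Plcxd3 Cxcl13 cells was at 32.7 and 85.8 CPM (1.36, 1.21 to 1.57), and its 2 clusters were at 7.91 and 15 CPM and at 110 and 181 CPM. Both of these clusters held more Col15a1 in the aged library.

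Smooth muscle-like cells, the contractile coat of collecting vessels and arteries, had 24 measured collagens. Of these 5 were at least 1.5-fold higher in the aged library, against 4.08% of 8262 genes, and 6 were lower, against 11.5%. The median was 0.22, beside -0.05 for all genes. In cells thinned to 3000 UMIs 3 collagens were past 1.5-fold in either direction, and 4 were with the repeated cells left in. Thinned sums are smaller under the same 50-UMI filter, and the repeated cells are adult, so both counts can fall by design. The higher genes were Col3a1 (551 and 1040 CPM, 0.91), Col1a2 (549 and 980 CPM, 0.84), Col1a1 (222 and 460 CPM, 1.05, 0.89 to 1.21), Col4a1 (353 and 540 CPM, 0.61, 0.48 to 0.75) and Col5a3 (32.6 and 56.9 CPM, 0.79).

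RNA of fibroblasts was present in this class. The 8 fibroblast-restricted genes were at a median of 18.8% (14.9% to 32.5%) of their fibroblast-like level in the adult and 18.2% (13% to 29.8%) in the aged library, and Col1a1 was at 27.4% and 22.8%. Without the 35 adult and 20 aged cells that held a Pdgfra UMI, Col1a1 was at 156 and 151 CPM, Col1a2 at 264 and 374 CPM and Col3a1 at 370 and 402 CPM. None of the 3 was then past 1.5-fold, Col1a1 had a ratio of -0.04, no collagen was counted as higher, and 6 were still counted as lower.

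Basement membrane chains stood above the fibroblast level. Col4a1 was at 178% of its fibroblast-like level in the adult and 259% in the aged library, Col4a2 at 264% and 336%, and Col18a1 at 360% and 600%. Without Pdgfra-bearing cells Col4a1 was at 390 and 582 CPM, a ratio of 0.58, just under 1.5-fold. Col4a2 was at 203 and 273 CPM (0.42, 0.24 to 0.61) and Col18a1 at 121 and 169 CPM (0.48, 0.24 to 0.72). Col6a3, at 175 and 233 CPM (0.41), was the sixth most abundant collagen of the class by the mean of both libraries.

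The 6 lower genes were less abundant. Col8a1, known from vascular smooth muscle and endothelium, was at 44.9 and 7.51 CPM (113 and 12 UMIs), a log2 ratio of -2.43 (-3.57 to -1.72). Col19a1 was at 30.2 and 4.38 CPM (76 and 7 UMIs), a ratio of -2.54 (-4.15 to -1.67). Col25a1, a transmembrane collagen, was at 34.2 and 15.6 CPM (-1.08) and Col4a6 at 27 and 14.4 CPM (-0.86, -1.66 to -0.21). Col15a1 was at 38.5 and 23.8 CPM (-0.67) and Col6a6 at 34.2 and 21.9 CPM (-0.62). Among male cells alone Col15a1 and Col6a6 had ratios of 0.52 and 0.22.

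The class joined 2 clusters whose proportion differed between ages: the one led by Actg2, a smooth muscle actin, had 138 cells in the adult and 64 in the aged library, and the other had 180 and 178. Col8a1 was at 68.7 and 2.75 CPM in the first and at 25.3 and 8.91 CPM in the second, and Col19a1 at 50.2 and 13.7 CPM and at 13.7 and 1.62 CPM, so both were lower in the aged library within each cluster. Col25a1 was at 63.4 and 35.7 CPM in the first and at 10.1 and 9.72 CPM in the second. Col15a1 was at 67.0 and 68.6 CPM in the first and at 15.2 and 10.5 CPM in the second. For Col15a1 the first cluster thus held no lower level in the aged library. Within the clusters 9 of 20 measured collagens were higher (against 8.28%) and 4 lower (against 11.8%) in the first, and 6 of 16 were higher (against 4.5%) and 0 lower (against 7.94%) in the second.

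Blood endothelial-like cells were mostly a venous-like cluster (367 of 628 adult and 295 of 425 aged cells) whose leading genes include the reporter eGFP. At resolution 1 they include Prox1 too. Lymphatic markers summed to 1555 and 1882 CPM in the class, beside 8384 and 8064 CPM for blood endothelial markers. This class had 15 measured collagens, of which 9 were at least 1.5-fold higher in the aged library, against 5.33% of 9330 genes, and 2 lower, against 7.08%. Their median was 0.83, beside 0.01 for all genes. In cells thinned to 3000 UMIs, with smaller sums under the same 50-UMI filter, 5 collagens were past 1.5-fold in either direction. The most abundant were the basement membrane chains Col4a1 (245 and 198 CPM, -0.31, -0.46 to -0.16) and Col4a2 (120 and 104 CPM, -0.2). Col18a1, whose cleaved end is endostatin, was at 50.4 and 103 CPM (1.02, 0.78 to 1.29). Col15a1 was at 109 and 60.4 CPM (-0.84, -1.11 to -0.59) and the transmembrane Col13a1 at 86.6 and 44.7 CPM (-0.94, -1.26 to -0.66). Col23a1 was at 4.73 and 15.4 CPM (1.51), Col4a5 at 5.55 and 10.4 CPM (0.79) and Col8a1 at 43.2 and 43.9 CPM (0.02).

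The other 6 higher genes were fibroblast collagens at low levels: Col3a1 (17.5 and 73.9 CPM, 2.02), Col1a2 (15.6 and 67.2 CPM), Col1a1 (4.94 and 29.6 CPM, 2.37), Col14a1 (4.11 and 17.9 CPM), Col5a2 (6.38 and 16.8 CPM) and Col5a1 (6.58 and 12.5 CPM). Of the aged UMIs, 41 of Col14a1 and 37 of Col1a1 came from 9.76% and 12.2% of the 41 aged arterial cells. Fibroblast-restricted genes were at a median of 1.29% of their fibroblast-like level in the adult and 2.31% in the aged library, and 5 of the 7 measured were themselves past 1.5-fold higher. Col1a1 was at 0.609% and 1.47% and Col3a1 at 0.904% and 1.56%. The fibrillar chains lay within or below the range of those genes (0.746% to 3.42% and 1.41% to 4.92%). Without the 20 adult and 9 aged cells that held a Pdgfra UMI, Col1a1 was at 4.27 and 18.2 CPM and Col1a2 at 13.5 and 39.3 CPM. Of the fibroblast-restricted genes, Dcn was then at 290 and 223 CPM and Lum at 5.98 and 14.8 CPM. Whether the fibrillar chains came from endothelium or from free or mixed fibroblast RNA was not tested. The part of such RNA in their age ratios was not tested either.

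The clusters of the class differed in collagens more than the ages did. Capillary blood cells (197 adult, 89 aged) held Col4a1 at 688 and 821 CPM, Col4a2 at 355 and 447 CPM, Col15a1 at 342 and 291 CPM (-0.23, -0.5 to 0.02) and Col13a1 at 281 and 211 CPM (-0.41, -0.72 to -0.12). Venous-like cells (367 and 295) held Col4a1 at 16 and 3.6 CPM and Col15a1 at 9.18 and 2.57 CPM. Within capillary cells neither Col15a1 nor Col13a1 was past 1.5-fold, and these cells were a smaller part of the aged than of the adult class. Col4a1 was above its adult level within capillary cells (0.25, 0.09 to 0.41) while it was below it over the class.

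Col18a1 was higher within venous-like cells, at 65.9 and 124 CPM (0.9, 0.63 to 1.19). Col8a1 was also higher there, at 10.9 and 23.7 CPM (1.05, 0.44 to 1.82). Arterial cells (64 and 41) were marked by Col8a1 at 383 and 250 CPM (-0.62, -1.03 to -0.22), beside Col4a1 at 307 and 287 CPM. Aged arterial cells also held Col14a1 at 140 CPM and Col1a1 at 126 CPM, where Dcn was at 409 CPM in adult and 1918 CPM in aged cells. These Col14a1 and Col1a1 levels rest on few cells, as 9.76% and 12.2% of the 41 aged cells held a UMI. Col8a1 was thus an arterial and Col13a1 a capillary collagen in both libraries.

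Lymphatic endothelial-like cells, the inner lining of the sampled vessels, had 5 measured collagens from 274 adult and 87 aged cells. Col23a1, a transmembrane collagen, was the most abundant in the adult, at 182 CPM and 96.2 CPM in the aged library (313 and 46 UMIs, -0.91, -1.4 to -0.47). It was the 1 lower gene, against 9.36% of 6003 genes. Col4a2 was the 1 higher gene, against 8.55%, at 38.4 and 58.6 CPM (0.6), but its interval of -0.08 to 1.27 reached below 0 and its ratio was -0.80 among female cells alone. Col4a1 was at 116 and 111 CPM (-0.07, -0.53 to 0.37), Col18a1 at 93.6 and 105 CPM (0.16, -0.33 to 0.63) and Col4a5 at 33.7 and 50.2 CPM (0.56, -0.18 to 1.28). The class intervals of these 3 genes all included 0. Capillary cells were 100 of the 274 adult and 19 of the 87 aged cells, and within them Col18a1 was past 1.5-fold higher, at 207 and 379 CPM (0.87, 0.23 to 1.47), and so was Col4a2, at 105 and 235 CPM (1.15, 0.31 to 1.95). The median of the 5 was 0.16, beside 0.04 for all genes.

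Col23a1 also followed the type of lymphatic vessel. Capillary lymphatic cells (100 adult, 19 aged) held it at 358 and 327 CPM (-0.13, -0.8 to 0.47) and collecting cells (158 and 48) at 113 and 77.5 CPM (-0.54, -1.29 to 0.13). Neither cluster was past 1.5-fold, and capillary cells were a smaller part of the aged class. An unnamed lymphatic cluster of 16 adult and 20 aged cells made up the rest, a larger part of the aged class. Col4a1 was at 316 and 458 CPM in capillary and at 26 and 51.7 CPM in collecting cells, and Col18a1 was at 44.2 and 62.8 CPM in collecting cells. Col4a1 and Col18a1 were thus higher in the capillary than in the collecting cluster in both libraries, whereas Col4a5 was at 29.6 and 26.2 CPM in capillary and at 28.8 and 25.8 CPM in collecting cells. Fibroblast-restricted genes were at 0.996% and 1.44% of their fibroblast-like level in this class. In fibroblast-like cells themselves Col23a1 was at 11.1 and 7.46 CPM.

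**Figure D4:**
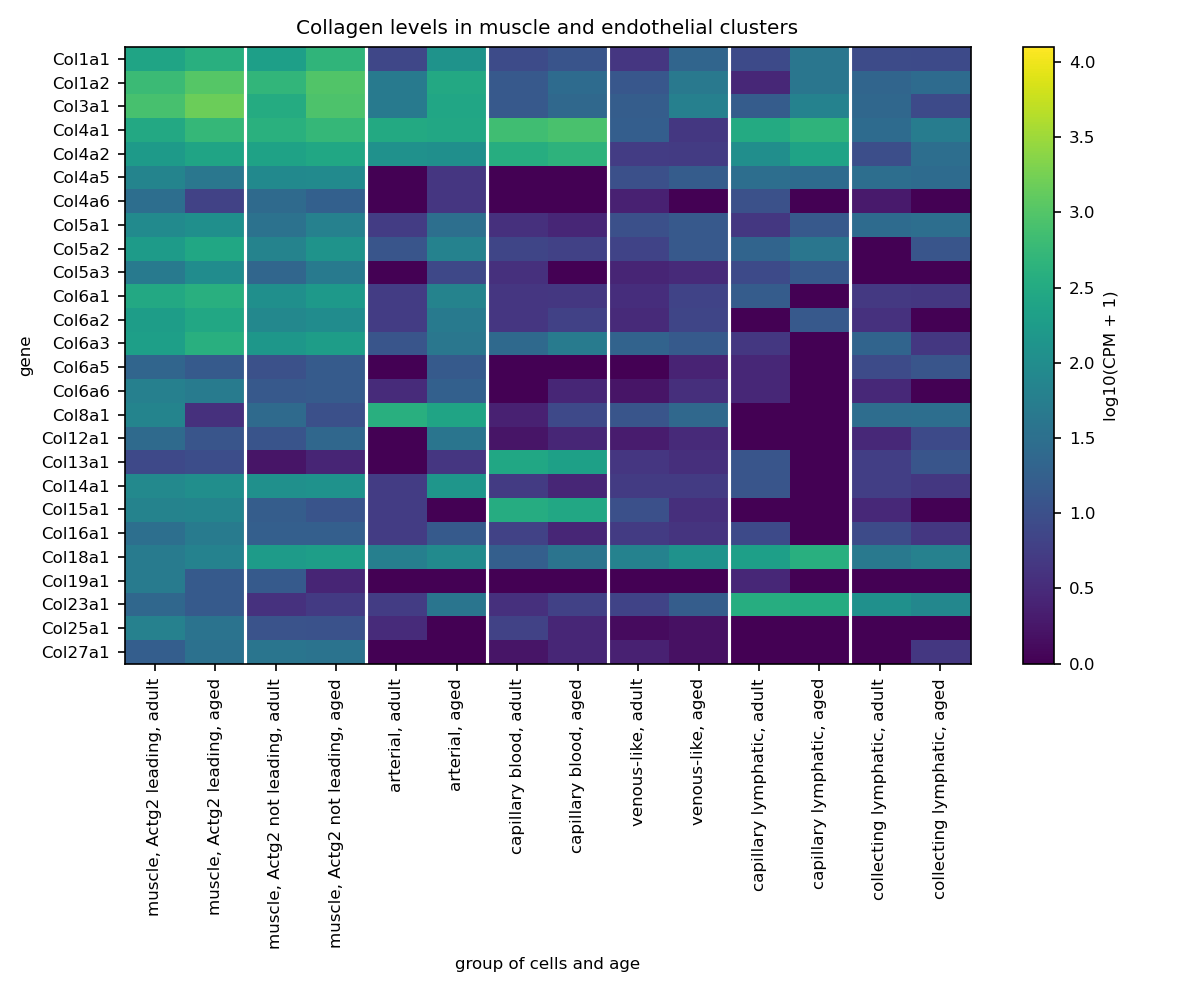
Level, as log10(CPM + 1) in colour, of the collagen genes measured in muscle or endothelium (rows) in 7 muscle and endothelial clusters, each with an adult and an aged column. Col13a1 and Col15a1 are bright in capillary blood cells, Col8a1 in arterial cells and Col23a1 in both lymphatic clusters.

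Across classes only Col4a1, Col4a2, Col4a5 and Col18a1 could be followed everywhere. Col4a1 had ratios of 0.08, 0.61, -0.31 and -0.07 in fibroblast-like, smooth muscle-like, blood endothelial-like and lymphatic endothelial-like cells. Col18a1 had ratios of -0.25, 0.48, 1.02 and 0.16 in the same order, and Col4a5 1.21, 0.01, 0.79 and 0.56. Col4a1 and Col18a1 thus had ratios on both sides of 0, while no class ratio of Col4a5 lay below 0. Within clusters Col4a5 went both ways. It was past 1.5-fold lower in the aged library in the Actg2-led muscle cluster. In capillary and collecting lymphatic cells it was only slightly lower, on few UMIs from 19 and 48 aged cells. In venous-like cells it was higher, at 9.18 and 14.4 CPM (0.6), with an interval of -0.17 to 1.47 that included 0. The ratio of Col4a1 to Col4a2 was 1.73 and 1.98 in smooth muscle-like, 2.04 and 1.90 in blood endothelial-like, and 3.03 (2.28 to 4.07) and 1.89 (1.18 to 3.11) in lymphatic endothelial-like cells.

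**Figure D5:**
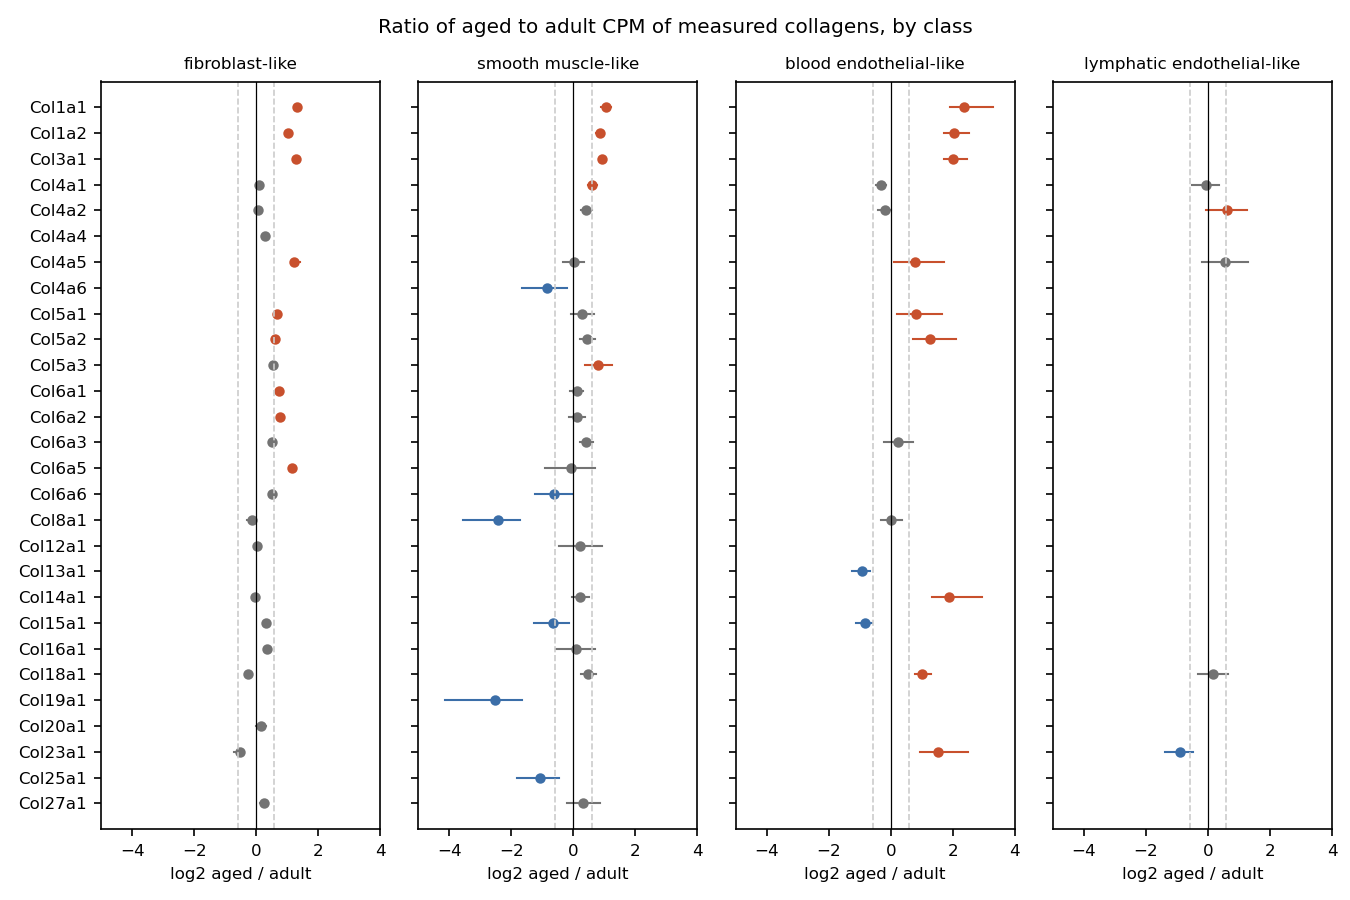
Log2 ratio of aged over adult CPM (horizontal axis) of each measured collagen gene in 4 classes, with 95% counting intervals, dashed lines at 1.5-fold, red for higher, blue for lower and grey for neither. In fibroblast-like cells 9 genes are red and none blue, whereas the muscle panel holds 5 red and 6 blue genes with wider intervals.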

How the data were processed

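Both libraries were used. The deposited values are natural log values, ln(1 + UMIs scaled to 10000 per cell), as the values themselves show; 100% gave whole UMIs within 0.01. Per the submitters' processing notes Seurat 5.0.3 was used, and builds GRCm39 and mm10 are named without a role. The sources used here name no aligner, counter or cell filter. Aged rows carry no gene names and were named by adult row order, checked on shared cells: 11970 of 11995 rows (99.8%) and 25 of 25 collagen rows matched best.

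Cells were clustered (2000 variable genes without collagen, mitochondrial, ribosomal, haemoglobin, sex-linked and immediate early genes; 30 components, 15 neighbours, Leiden resolution 2; numpy 2.4.6, scikit-learn 1.9.0, igraph 0.11.9, leidenalg 0.10.2). No doublet caller was run. Classes were rebuilt and need not match the authors' own. UMIs were summed per class and library. Ratio intervals are exact conditional binomial (scipy 1.17.1), level intervals exact Poisson, and a level at 0 is bounded by 3 counts. The procedure was tested on simulated data.

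Members, gene lists, markers and thresholds were chosen with earlier results of these data known. Named in full were the 12 most abundant members in fibroblast-like cells, the 6 in each other class, every member past 1.5-fold, and 15 by subtype pattern. Alternatives covered shared barcodes, 10 CPM added, a 10-UMI filter, totals, cluster weights, thinning to 3000 UMIs, sex, resolution 1, clustering with collagens, and removal of Pdgfra-bearing cells.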

Additional observations from a re-analysis of the deposited data

Results flagged for a closer look

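Col23a1 differed in direction between the endothelial classes. Its log2 ratio (aged over adult) in blood endothelial-like cells was 1.51, from 23 adult and 43 aged UMIs, and in lymphatic endothelial-like cells it was -0.91, from 313 and 46 UMIs. Each class has 1 library per age, and the difference between the ratios was not tested. Within venous-like cells, whose leading genes include the reporter eGFP, the ratio was 1.23. Within the capillary and collecting lymphatic clusters it was -0.13 and -0.54.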

How the results depend on the processing

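With all cells of the aged table as deposited, the number of collagens past 1.5-fold was 5 in place of 9 in fibroblast-like, 4 in place of 11 in smooth muscle-like and 1 in place of 2 in lymphatic endothelial-like cells. Thinned cells gave 3 in smooth muscle-like, 5 in blood endothelial-like (11 in the main setting) and 1 in lymphatic endothelial-like cells. Thinned, sex-split and Pdgfra-free sums are smaller under the same 50-UMI filter, so fewer genes can be measured in these settings. Shares of all genes are not given for them, so a smaller count need not mean a lost difference. Without Pdgfra-bearing cells the numbers were 6 in smooth muscle-like and 1 in lymphatic endothelial-like cells. The 10-UMI filter gave 18 of 26 in blood (19.4% of all genes) and 10 of 18 in lymphatic endothelial-like cells (30.6% of all genes). Female cells gave 7 and 1 and male cells 5 and 1 in these 2 classes. In lymphatic endothelial-like cells 10 CPM added, median-ratio scaling and resolution 1 each gave 1.

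The collagen share of UMIs in thinned cells was 1.56% in aged fibroblast-like, 0.273% and 0.347% in adult and aged smooth muscle-like, 0.0833% in aged blood endothelial-like and 0.0679% in adult lymphatic endothelial-like cells. Without Pdgfra-bearing cells it was 0.256% and 0.288% in smooth muscle-like and 0.074% and 0.0766% in blood endothelial-like cells. Reversed ratios were Col6a6 (0.22) and Col15a1 (0.52) in male smooth muscle-like cells, Col1a1 (-0.04) in smooth muscle-like cells without Pdgfra-bearing ones, and Col4a2 (-0.80) in female lymphatic endothelial-like cells. The cause was not tested. Another 404 single-gene values stayed within their counting interval and 148 moved beyond it without reversing. No paired analysis was possible because each age has 1 library. With 87 aged lymphatic endothelial-like cells, depth limits that class most.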
